A study of Homo sapiens with 8 samples.

Results

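The genes described here are 9 reported targets of miR-99a-5p, namely MTOR, RPTOR, IGF1R, AKT1, SMARCA5, SMARCD1, FKBP5, FGFR3 and BMPR2. They were chosen by name, as genes said elsewhere to be repressed by this miRNA, and every probe that the array assigns to one of them was taken. All 9 were present, with 12 of the 58201 gene probes and 9 of the 43317 genes on the array. The question was whether their mRNA was lower in FaDu cells given miR-99a-5p than in mock FaDu cells, and whether it was lower there than under the other transfections of the series.

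The series held 8 Agilent 2-colour arrays of 1 slide, with 1 array per condition. FaDu (hypopharyngeal squamous cell carcinoma) received miR-99a-5p on 1 array and miR-99a-3p on another. PC3 (prostate cancer) received either strand of miR-150, miR-99a-3p or miR-100-3p, and PANC-1 (pancreatic cancer) received si-FOXQ1-1 or si-FOXQ1-2. On every array the Cy5 channel held the transfected cells and the Cy3 channel held mock cells of the same line, which the labels describe as not transfected. The effect of a given RNA, of transfection as such and of the dye therefore cannot be told apart on 1 array, and no control miRNA was analysed here. With 1 array per condition no ratio has a replicate, so no test was made on ratios. The error given after each ratio (±) is the error that the scanner software estimated for that spot, which does not cover the spread between cultures.

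The lines showed the markers of their labels in part. All 7 squamous genes (KRT5, KRT14, KRT6A, TP63, DSG3, SFN and DSC3) were well above background in both FaDu mock channels. Of these, KRT5, KRT14, TP63 and DSG3 were above background in no PC3 or PANC-1 mock channel. SFN was above background in every PC3 and PANC-1 mock channel. DSC3 was in all 4 PC3 channels and KRT6A in 2 of 4, and both were in no PANC-1 channel. All 6 ductal genes were above background in PANC-1, and also in FaDu and PC3. Of 7 prostate genes, 5 were above background in all 4 PC3 mock channels, and KLK3 was in none. FOXQ1, the gene targeted by the siRNAs, had log2 ratios of -2.16 ± 0.29 and -2.12 ± 0.28 on the si-FOXQ1-1 and si-FOXQ1-2 arrays. Between 81 and 178 flagged spots per array were left out of 60901, and 15771 to 17629 genes per array were well above background in both channels.

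MicroRNAs guide the Argonaute protein to mRNAs that pair with their seed, bases 2 to 8 from the 5′ end, and the bound mRNA is repressed in translation or degraded. An mRNA array sees the degradation and is blind to a block of translation. miR-99a-5p is the guide strand of its hairpin and miR-99a-3p the passenger strand. The mature sequences below (RefSeq, GRCh38.p14) are shown because the seed tells the strands apart, with the seed in capitals.
miR-99a-5p: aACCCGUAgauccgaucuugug
miR-100-5p: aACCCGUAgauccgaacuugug
miR-99a-3p: cAAGCUCGcuucuaugggucug
miR-100-3p: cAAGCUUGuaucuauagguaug
miR-99a-5p lies on chromosome 21 (chr21:16539101-16539122, plus strand) and miR-99a-3p on the same hairpin (chr21:16539138-16539159). The 5p strands of miR-99a and miR-100 shared the seed and 21 of 22 bases. The 3p strands shared 17 of 22 bases and differed in the seed. Neither 3p seed equals the 5p seed, so that the FaDu miR-99a-3p array carried another seed in the same cells.

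In FaDu cells with miR-99a-5p, no reported target was lower than mock by 1.5-fold. Of the 9 genes, 8 were well above background in both channels, and 0 of these 8 were lower and 0 higher by 1.5-fold, against 2.57% and 5.05% of the 15771 genes measured on that array. At 2-fold, 0 of 8 were lower, against 0.165% of all genes. Their median log2 ratio was -0.10, with a lowest value of -0.26 (FKBP5) and a highest of 0.11 (IGF1R), and the median of all genes was 0.00. Log2 ratios were below 0 for 6 of the 8 genes, where 49.6% of all genes were. Only SMARCD1 was below 0 by more than its spot error, 1 gene of 8, against 21.6% of all genes. A decrease within the spot error was not detectable on 1 array, and the spot errors of the members ran from 0.20 to 0.34 on the log2 scale.

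**Figure D1:**
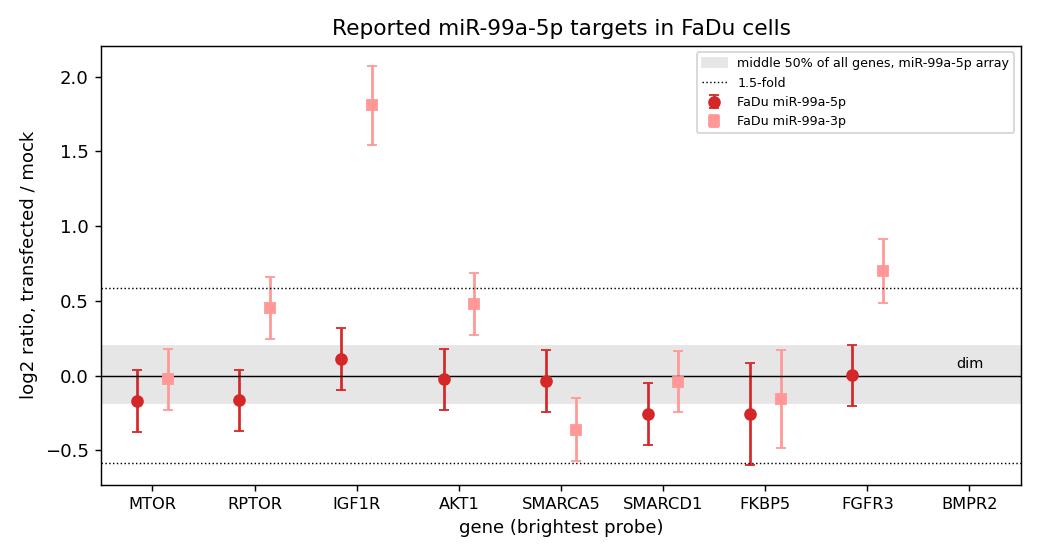
Log2 ratio of transfected over mock FaDu cells (vertical axis) for the brightest probe of each reported target, with the spot error as bars, for the miR-99a-5p array (circles) and the miR-99a-3p array (squares), over a grey band for the middle part of all genes on the former. The circles all lie between -0.26 and 0.11, inside the 1.5-fold lines, while IGF1R and FGFR3 lie above the upper line on the miR-99a-3p array; BMPR2 was not well above background in FaDu.

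MTOR and RPTOR encode the kinase and the scaffold of mTOR complex 1, which couples nutrient and growth factor signals to protein synthesis. The MTOR probe lies at chr1:11167492-11167551 (hg19, minus strand). On the FaDu miR-99a-5p array mock cells gave a signal of 623 and transfected cells one of 553, a log2 ratio of -0.17 ± 0.21. On the other arrays MTOR had log2 ratios of -0.03 (FaDu miR-99a-3p), -0.31 (PC3 miR-150-5p), -0.14 (PC3 miR-150-3p), 0.07 (PC3 miR-99a-3p), 0.05 (PC3 miR-100-3p), 0.08 (si-FOXQ1-1) and -0.13 (si-FOXQ1-2). The FaDu miR-99a-5p value was the second lowest of 8, above that of miR-150-5p in PC3, which was the one value beyond its error. MTOR was among the steadiest genes of the series. Its 8 ratios spanned 0.40 on the log2 scale, and 5.58% of 13243 genes measured on all arrays spanned less, where the median gene spanned 0.90.

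RPTOR (probe at chr17:78939983-78940042, hg19, plus strand) had signals of 937 in mock FaDu cells and 835 with miR-99a-5p, a log2 ratio of -0.17 ± 0.21. With miR-99a-3p in the same line the log2 ratio was 0.45 ± 0.21. In PC3 the RPTOR ratios were 0.02, 0.43, -0.14 and 0.15 for miR-150-5p, miR-150-3p, miR-99a-3p and miR-100-3p, and in PANC-1 they were -0.17 and -0.04. RPTOR was thus above 0 beyond its error with miR-99a-3p in FaDu and with miR-150-3p in PC3, and below 0 beyond it on no array.

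IGF1R, the receptor tyrosine kinase for insulin-like growth factors, and AKT1, a kinase that acts downstream of it through PI3K, are the upstream members. The IGF1R probe lies at chr15:99507366-99507425 (hg19, plus strand). Its log2 ratio was 0.11 ± 0.21 in FaDu with miR-99a-5p, from signals of 428 and 461. In FaDu with miR-99a-3p it was 1.81 ± 0.26, from signals of 661 and 2314, which was the highest ratio of any reported target on any array. In PC3 it was 0.69 ± 0.22 with miR-150-5p, 0.69 ± 0.22 with miR-150-3p, 1.42 ± 0.25 with miR-99a-3p and 0.64 ± 0.22 with miR-100-3p. In PANC-1 it was -0.15 ± 0.20 and 0.36 ± 0.21 with si-FOXQ1-1 and si-FOXQ1-2.

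IGF1R was therefore above 0 beyond its error on 6 of 8 arrays, and both miR-99a-3p arrays had the highest values. It lay at the 98.7th percentile of genes in FaDu and the 98.8th in PC3 with miR-99a-3p. Its range over the 8 arrays was 1.96, and 92.8% of genes had a smaller one. After another background correction and normalization (limma normexp and loess), the ratios were 1.65 and 1.10 on the miR-99a-3p arrays and 0.46 with miR-150-5p, 0.53 with miR-150-3p and 0.45 with miR-100-3p in PC3, which ended the 1.5-fold call for these last 3 arrays.

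AKT1 (probe at chr14:105235975-105236034, hg19, minus strand) had a log2 ratio of -0.02 ± 0.20 with miR-99a-5p in FaDu, from signals of 1185 and 1164. With miR-99a-3p in FaDu it was 0.48 ± 0.21. In PC3 it was below 0 beyond its error on all 4 arrays, at -0.50 ± 0.21 (miR-150-5p), -0.38 ± 0.21 (miR-150-3p), -0.28 ± 0.21 (miR-99a-3p) and -0.37 ± 0.21 (miR-100-3p). In PANC-1 it was -0.05 ± 0.20 and -0.23 ± 0.21. The 4 PC3 values were the lowest of the series for AKT1, and the FaDu miR-99a-5p value was the second highest.

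SMARCA5, the ATPase of ISWI chromatin remodelling complexes, had 2 probes. The brighter one (chr4:144476358-144476417, hg19, plus strand) is also assigned by the array to a long noncoding RNA, lnc-MEP1B-2, so that its signal may not come from SMARCA5 alone. It had a log2 ratio of -0.04 ± 0.21 with miR-99a-5p in FaDu and -0.36 ± 0.21 with miR-99a-3p. The other probe (chr4:144469182-144469241) had -0.14 ± 0.21 and 0.16 ± 0.21 on these arrays. The probes therefore disagreed on which of the FaDu arrays was lower. On the other 6 arrays the brighter probe ran from -0.22 to 0.16 and the other from -0.13 to 0.29. For the second probe the FaDu miR-99a-5p value was the lowest of the 8 arrays, by a margin far inside its error over the next array, PC3 miR-150-3p at -0.13.

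SMARCD1, an accessory subunit of the SWI/SNF remodelling complexes, had a signal of 1680 in mock FaDu cells and 1406 with miR-99a-5p (probe at chr12:50494275-50494334, hg19, plus strand). Its log2 ratio was -0.26 ± 0.21, the one value of the reported targets beyond its spot error on this array, and 1.19-fold lower than mock. After the limma normalization it was -0.14, within that error. The ratio with miR-99a-3p in FaDu was -0.04 ± 0.20, and the difference of -0.21 between the FaDu arrays was within its joint error of 0.29. In PC3 SMARCD1 had 0.12, -0.75, 0.13 and 0.21 for miR-150-5p, miR-150-3p, miR-99a-3p and miR-100-3p, and in PANC-1 -0.21 and 0.11. The lowest SMARCD1 value was thus that of miR-150-3p in PC3, and that of FaDu miR-99a-5p came next.

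FKBP5, a co-chaperone of steroid receptors whose transcription is induced by glucocorticoids and androgens, was dim. Its brighter probe (chr6:35541928-35541987, hg19, minus strand) had a signal of 54.8 in mock FaDu cells and 45.8 with miR-99a-5p, a log2 ratio of -0.26 ± 0.34. The ratio was -0.15 ± 0.33 with miR-99a-3p in FaDu, -0.34 ± 0.25 with miR-150-5p and -0.96 ± 0.27 with miR-150-3p in PC3, and 0.12 ± 0.24 and 0.37 ± 0.24 in PANC-1. With miR-99a-3p and miR-100-3p in PC3 the Cy5 signal was not well above background, and FKBP5 was at least 2.17-fold and at least 1.70-fold lower than mock. These bounds set the mock signal of the array over the lowest Cy5 signal that was well above background on it. All 4 PC3 arrays thus had FKBP5 below mock, and both PANC-1 arrays had it above 0. The miR-150-3p value fell short of 1.5-fold after the limma normalization, at -0.50. The other FKBP5 probe (chr6:35548675-35548734) was not well above background in either channel of any array.

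FGFR3, a fibroblast growth factor receptor, was bright in FaDu (probe at chr4:1810363-1810422, hg19, plus strand), with signals of 887 in mock cells and 888 with miR-99a-5p. Its log2 ratio there was 0.00 ± 0.20. With miR-99a-3p in FaDu it was 0.70 ± 0.21, and in PANC-1 it was -0.33 ± 0.22 and 0.08 ± 0.21. In PC3 FGFR3 was not well above background in either channel of any array. The second FGFR3 probe (chr4:1809054-1809113) had no channel pair above background on any array. In FaDu with miR-99a-5p only its Cy3 channel was above background, with signals of 30.3 in mock and 20.0 in transfected cells, which allow no bound on the fold. With miR-99a-3p only its Cy5 channel was, with signals of 31.8 in mock and 59.9 in transfected cells. The log2 ratio was 0.91 ± 0.49. That ratio rests on a mock signal not well above background and is not a lower bound on the fold.

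BMPR2, the type II receptor for bone morphogenetic proteins, could not be assessed in FaDu. Its probe (chr2:203431522-203431581, hg19, plus strand) was not well above background in either channel of both FaDu arrays. In PC3 its log2 ratios were -0.79 ± 0.32 with miR-150-5p, -0.54 ± 0.27 with miR-150-3p, 1.11 ± 0.26 with miR-99a-3p and -0.58 ± 0.31 with miR-100-3p. In PANC-1 it was at least 2.21-fold lower than mock with si-FOXQ1-1 and had -0.50 ± 0.28 with si-FOXQ1-2. BMPR2 was thus higher than mock with miR-99a-3p in PC3 and lower than mock on the 4 other arrays that measured it in both channels, as well as by its bound with si-FOXQ1-1. After the limma normalization the PC3 ratios were -0.33, -0.30, 0.64 and -0.33, which kept their directions and left 1 of them, that of miR-99a-3p, past 1.5-fold.

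**Figure D2:**
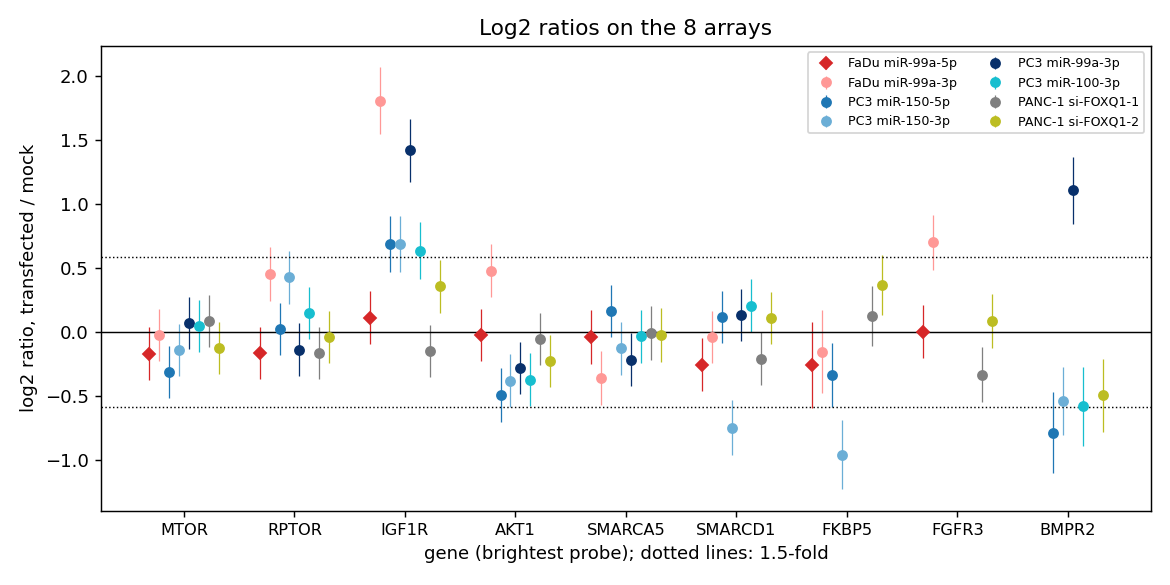
Log2 ratio of transfected over mock cells (vertical axis) of each reported target on each of the 8 arrays, with the spot error as bars; arrays on which a gene was dim in a channel are left out. The FaDu miR-99a-5p values (diamonds) are the lowest of the series for no gene, and the highest points are IGF1R with miR-99a-3p in FaDu (1.81) and PC3 (1.42).

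Across the series the FaDu miR-99a-5p array did not hold the lowest ratio of any of the 6 targets measured on all 8 arrays, where it held the lowest ratio of 9.33% of 13243 genes. It was the second lowest for MTOR, RPTOR, IGF1R and SMARCD1, the fourth lowest for SMARCA5 and the second highest for AKT1. Set against miR-99a-3p in the same line, 3 of the 8 targets were lower by 1.5-fold with miR-99a-5p, against 15.6% of 15233 genes. These were IGF1R (a difference of -1.70 ± 0.33), FGFR3 (-0.70 ± 0.30) and RPTOR (-0.62 ± 0.29), and with AKT1 (-0.50 ± 0.29) 4 of 8 were lower beyond the joint spot error, as were 29.1% of genes. In each of these 4 the ratio to mock was within its error of 0 with miR-99a-5p and above 0 beyond its error with miR-99a-3p. The miR-99a-3p array of FaDu moved more genes than the miR-99a-5p array, with 14.3% of genes lower and 18.9% higher by 1.5-fold.

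On the other arrays the reported targets past 1.5-fold were few. In FaDu with miR-99a-3p 2 of 8 were higher (IGF1R and FGFR3, against 18.9% of genes) and 0 of 8 were lower (against 14.3%). In PC3 1 was lower of 8 with miR-150-5p (BMPR2, against 3.97% of genes), 2 of 8 with miR-150-3p (SMARCD1 and FKBP5, against 8.80%) and 0 of 7 with miR-99a-3p (11.7%) and with miR-100-3p (3.49%). These counts cover genes measured in both channels, and so leave out FKBP5 in PC3 with miR-99a-3p and miR-100-3p, for which only the bounds above are known. IGF1R was higher on all 4 PC3 arrays and BMPR2 on that of miR-99a-3p, against 4.70%, 10.3%, 14.0% and 4.70% of genes higher with miR-150-5p, miR-150-3p, miR-99a-3p and miR-100-3p. In PANC-1 no target measured in both channels was lower or higher by 1.5-fold, BMPR2 with si-FOXQ1-1 being known by its bound alone, against 3.17% of genes lower and 4.11% higher with si-FOXQ1-1 and 2.65% and 2.97% with si-FOXQ1-2.

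The other genes of the targets' pathways, and further genes named as targets of the miR-99 family, were read on the FaDu miR-99a-5p array in the same way. These 7 lists, the last of them that of the further family targets, held 175 genes. Of the 175, 130 were measured in both channels, with a median log2 ratio of 0.00. Of the 130 measured genes, 1 (BPTF) was lower and 6 were higher by 1.5-fold, namely HSP90AA1, DUSP1, SGK1, SPRY1, ID2 and PLK1. Of all genes on this array 2.57% were lower and 5.05% higher, and these shares are the background of every list count that follows. The medians of the lists ran from -0.07 (IGF, PI3K and AKT pathway, 22 genes measured) to 0.11 (steroid receptors and their chaperones, 15 genes).

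Among 28 measured genes of the mTOR complexes and their regulators, 0 were lower and 0 higher by 1.5-fold, and 16 were below 0, with a median of -0.03. The lowest were ULK1, the autophagy kinase that mTOR complex 1 inhibits (-0.55 ± 0.21), and TSC1, a brake on that complex (-0.51 ± 0.21). The highest were RHEB, the GTPase that activates it (0.55 ± 0.21), and RRAGA, a Rag GTPase of nutrient sensing (0.44 ± 0.21). TSC1 had its lowest value of the 8 arrays here, whereas ULK1 was far lower with miR-99a-3p in FaDu, at -1.93. In the IGF, PI3K and AKT list 0 of 22 passed in either direction. IGF2R (-0.42 ± 0.21) and AKT2 (-0.38 ± 0.21) were lowest, INPP4B (0.47 ± 0.40) and IGFBP2 (0.38 ± 0.24) highest.

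In the list of SWI/SNF and ISWI remodellers 1 of 31 genes was lower and 0 were higher by 1.5-fold, against 2.57% and 5.05% of all genes. That gene was BPTF, the largest subunit of the ISWI complex NURF, at -0.82 ± 0.31, from a mock signal of 88.2. Its values on the other arrays ran from -0.11 to 0.96, so the FaDu miR-99a-5p value was the lowest of 8. BAZ2A, a subunit of the ISWI complex NoRC, was next at -0.42 ± 0.21 and was also lowest of the 8 arrays. Both genes were named for being lowest of the list on this array, so these ranks are no separate result. ARID1A (0.41 ± 0.25) and RBBP4 (0.28 ± 0.21) were the highest of the list.

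Of 15 steroid receptor and chaperone genes 3 were higher by 1.5-fold and 0 lower, against 5.05% and 2.57% of all genes. HSP90AA1, the inducible cytosolic HSP90, had 0.65 ± 0.21 and SGK1, a kinase induced by glucocorticoids, 0.66 ± 0.21. At the low end TSC22D3 had -0.19 ± 0.20 and PER1 -0.12 ± 0.21. Of 12 genes of the FGF receptor list, SPRY1, a feedback inhibitor of receptor tyrosine kinases, was higher (1.01 ± 0.24), with SPRY2 next (0.46 ± 0.22), and FRS2 (-0.46 ± 0.34) and FGFR2 (-0.32 ± 0.21) were lowest. Of 12 genes of the BMP list, ID2, a BMP-induced inhibitor of differentiation, was higher (1.15 ± 0.30, from a mock signal of 53.0), with ID3 at 0.45 ± 0.24, and SMURF1 (-0.35 ± 0.33) and BMP6 (-0.33 ± 0.26) were lowest.

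Of 23 further genes named as targets of the miR-99 family, 12 were measured, 0 were lower and 1 was higher by 1.5-fold. BAZ2A, which this list shares with that of the remodellers, and ZZEF1 (-0.23 ± 0.21) were lowest, and ZZEF1 too had its lowest value of the 8 arrays here. PLK1, a mitotic kinase, was highest at 0.61 ± 0.21, with the checkpoint kinase ATM at 0.44 ± 0.22.

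**Figure D3:**
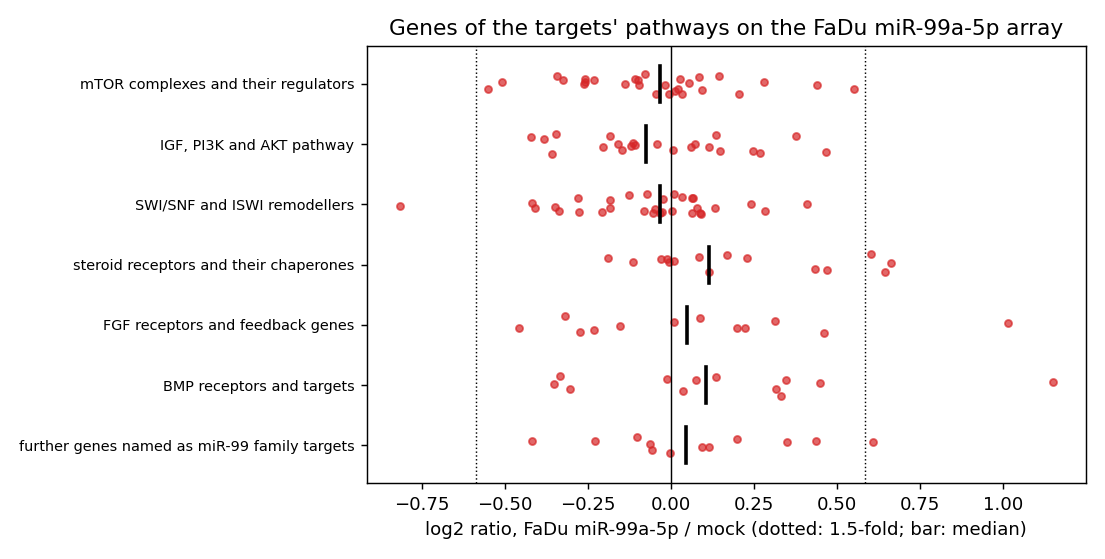
Log2 ratio of FaDu cells with miR-99a-5p over mock cells (horizontal axis) for each measured gene of 7 lists (1 point per gene, bar at the median of the list). List medians lie between -0.07 and 0.11, and the one gene below the lower 1.5-fold line is BPTF at -0.82.

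Transcript sequences were not used here, so genes with a site in the mRNA were not counted. The 60-base probes were searched instead for TACGGGT, the 7-letter match to the miR-99a-5p seed, in the orientation of the probe, which is that of the mRNA. It occurred in 26 of 58201 probes and in 0 of the 12 probes of the reported targets, which says only that these letters are not in those windows. Of the 26, 5 were well above background in both channels in FaDu with miR-99a-5p. Their median log2 ratio was -0.23, 4 were below 0 and 0 were lower by 1.5-fold, against 49.6% and 2.57% of all genes on that array. Measured probes with the match were below 0 in 4 of 5 with miR-99a-3p in FaDu (2 lower by 1.5-fold) and with miR-100-3p in PC3 (1 lower). They were below 0 in 4 of 6 on each PANC-1 array. In PC3 they were below 0 in 2 of 6 with miR-150-5p, 0 of 5 with miR-150-3p and 1 of 6 with miR-99a-3p. The match is shown in capitals in 30 bases of 4 of the 5 probes measured in FaDu with miR-99a-5p, since these transcripts are known here to carry it. The probe of lnc-PRAGMIN.1-3 carries it too, had a log2 ratio of -0.09 ± 0.23 on that array, and is not shown.
TMEM87B: tgttagtgaggaTACGGGTctggtttgatg
FLJ37453: ctgttttccagaTACGGGTttatagcccat
ZZEF1: tttaatttgttttctTACGGGTttacgatt
ZNF845: tgtttctttaataaaaactgtTACGGGTtt
The windows lie at chr2:112876003-112876032 (TMEM87B, plus strand), chr1:16160835-16160864 (FLJ37453, minus strand), chr17:3907877-3907906 (ZZEF1, minus strand) and chr19:53857771-53857800 (ZNF845, plus strand) of hg19. Their log2 ratios were -0.50 ± 0.22, -0.33 ± 0.21, -0.23 ± 0.21 and 0.13 ± 0.21 in that order. The median over measured probes with this match was -0.20 with miR-99a-3p in FaDu. In PC3 it was 0.18 with miR-150-5p, 0.31 with miR-150-3p, 0.16 with miR-99a-3p and -0.21 with miR-100-3p, and in PANC-1 -0.19 and -0.16. The FaDu miR-99a-5p median was thus the lowest of 8, over 5 or 6 probes an array. Its margin over the medians of -0.21 (miR-100-3p in PC3) and -0.20 (miR-99a-3p in FaDu) was far inside 1 spot error.

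The starting level of the targets in mock cells differed between the lines. Levels are given as log2 Cy3 signal minus the 75th percentile of the array, over 2 FaDu, 4 PC3 and 2 PANC-1 mock channels, and are compared between lines for the same probe. The labels do not say whether these channels held separate RNA extracts, so the spread and the p-values measure only the spread between arrays. In bulk RNA, fewer cells that express a gene and less RNA per cell cannot be told apart. By limma with Benjamini-Hochberg adjustment over 21496 genes, 6 of 9 targets differed between FaDu and PC3 (77.9% of all genes), 8 of 9 between FaDu and PANC-1 (72.4%) and 5 of 9 between PC3 and PANC-1 (69.4%). Most genes of the array differed between the lines. The target counts include FGFR3 against PC3 and BMPR2 against FaDu. There the signals of a dim line entered the test because the gene was well above background in another line.

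**Figure D4:**
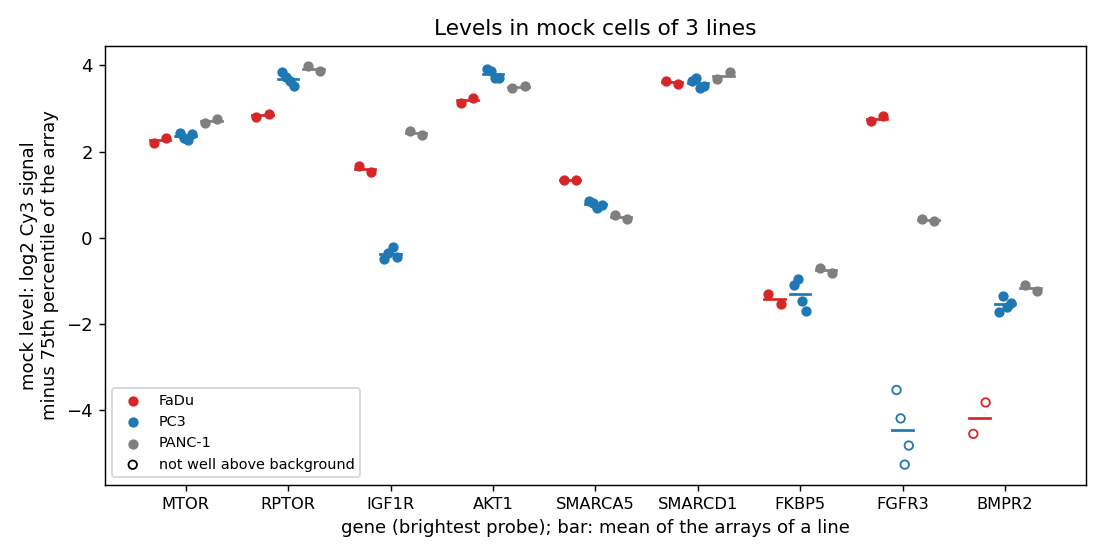
Mock level of each reported target (vertical axis, log2 Cy3 signal minus the 75th percentile of the array) in FaDu, PC3 and PANC-1; each point is the mock channel of 1 array, bars are means and open points were not well above background. FGFR3 in PC3 and BMPR2 in FaDu were not above background; of the other 7 targets, IGF1R separates the lines most (means of 2.43 in PANC-1, 1.59 in FaDu and -0.38 in PC3).

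FGFR3 had mock levels of 2.71 and 2.82 in FaDu and of 0.44 and 0.40 in PANC-1, and was above background in 0 of 4 PC3 channels. The FaDu level was at least 77.9-fold that of PC3 and 5.08-fold that of PANC-1 (limma adjusted p = 0.00477). The PANC-1 level was at least 15.3-fold that of PC3. The limma p-values against PC3 are left out, since they rest on PC3 signals not well above background and do not test the bounds. FGFR3 entered that test only through the lines in which it was high. For these bounds the dim channel was set at the lowest signal well above background on its array, or at its own signal where that was higher. Both bounds hold for this probe and normalization. After limma normexp, which adds an offset to every signal, the log2 difference of FGFR3 was 4.10 for FaDu minus PC3 and -2.02 for PC3 minus PANC-1. Over the mean of its probes it was 5.11 and -2.53. All were smaller in size than the bounds.

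BMPR2 was the converse, above background in both PANC-1 channels (-1.10 and -1.23) and in all 4 PC3 channels (-1.72 to -1.34) and in neither FaDu channel. It was at least 2.68-fold higher in PC3 than in FaDu and at least 3.47-fold higher in PANC-1 than in FaDu. The limma p-values against FaDu are left out for the same reason as those of FGFR3 against PC3. PC3 and PANC-1 differed by 0.38 ± 0.20 (SE) on the log2 scale in favour of PANC-1, which did not pass (adjusted p = 0.139). It passed after limma normexp (adjusted p = 0.0174) and without either FaDu channel (adjusted p = 0.0282). The BMPR2 bounds too are those of 1 normalization. The limma normexp log2 differences were -0.78 for FaDu minus PC3 and -0.98 for FaDu minus PANC-1, smaller in size than the bounds.

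IGF1R was highest in PANC-1 (2.47 and 2.39), then in FaDu (1.66 and 1.52), and lowest in PC3 (-0.50, -0.36, -0.21 and -0.45). No line overlapped another. FaDu was 3.92-fold above PC3 (adjusted p = 1.66e-06) and PANC-1 6.99-fold above PC3 (adjusted p = 4.36e-07) and 1.78-fold above FaDu (adjusted p = 3.59e-04).

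RPTOR was lower in FaDu (2.79 and 2.88) than in PC3 (3.51 to 3.84) and PANC-1 (3.99 and 3.86), by 0.84 ± 0.10 and 1.08 ± 0.11 (SE) on the log2 scale (adjusted p = 1.76e-04 and 1.20e-04). AKT1 was lower in FaDu (3.13 and 3.24) than in PC3 (3.70 to 3.92) by 1.53-fold (adjusted p = 4.54e-04), and PANC-1 lay between them (3.47 and 3.51, adjusted p = 0.0273 against FaDu and 0.0149 against PC3). Both of the latter calls were lost without either PANC-1 channel, and the former also without the FaDu channel of the miR-99a-5p array (adjusted p = 0.0576 to 0.129). Both were also lost with dim probes kept (adjusted p = 0.0795 against FaDu and 0.0549 against PC3), the call against FaDu after limma normexp (adjusted p = 0.0567), and the call against PC3 with median scaling (adjusted p = 0.354). The brighter SMARCA5 probe was higher in FaDu (1.33 in both channels) than in PC3 (0.69 to 0.86, adjusted p = 2.12e-04) and PANC-1 (0.54 and 0.44, adjusted p = 5.94e-05). Its other probe put FaDu (0.74 and 0.77) below PC3 (0.90 to 1.11), and the FaDu and PC3 difference did not pass over the mean of both probes (adjusted p = 0.0693), so that their order for SMARCA5 is not settled.

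MTOR had 2.20 and 2.32 in FaDu and 2.26 to 2.43 in PC3, which overlapped (adjusted p = 0.311), and was higher in PANC-1 (2.66 and 2.76) by 1.37-fold over FaDu (adjusted p = 0.00257). SMARCD1 was the most even of the targets, with 3.57 and 3.64 in FaDu, 3.47 to 3.71 in PC3 and 3.68 and 3.84 in PANC-1, and no pair of lines passed the test (adjusted p = 0.878, 0.209 and 0.127 for FaDu against PC3, FaDu against PANC-1 and PC3 against PANC-1). Scaled by the median in place of the 75th percentile, SMARCD1 was lower in FaDu than in PANC-1, at -0.50 on the log2 scale (adjusted p = 0.0308). FKBP5 had -1.30 and -1.54 in FaDu, -1.69 to -0.95 in PC3 and -0.69 and -0.81 in PANC-1. PC3 against PANC-1 did not pass (adjusted p = 0.0515), but did after limma normexp (adjusted p = 0.0198), with median scaling (0.0347), over the mean of its probes (0.00288) and without the PC3 channel of the miR-150-5p array (0.0499) or of the miR-150-3p array (0.0201). The FKBP5 difference of FaDu from PANC-1 (limma adjusted p = 0.0415) was lost when any FaDu or PANC-1 channel was left out (adjusted p = 0.0664 to 0.166) and when the PC3 channel of the miR-99a-3p array was (adjusted p = 0.0536), and also with dim probes kept (adjusted p = 0.0799) and over the mean of its probes (adjusted p = 0.159).

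By Pearson correlation of the log2 ratios over the 8 arrays among 13243 genes, the genes most like MTOR were MMP14 (0.95), ZDHHC18 (0.93) and TEAD3 (0.92). Those most like SMARCA5 by its brighter probe were SNORD63 (0.97), USP36 (0.97) and PPIP5K1 (0.96). These are descriptions over 8 points that share a slide and, within a line, may share the mock RNA. The genes named were picked as the highest among 13243, so the size of their correlations was not tested. MTOR spanned 0.40 over the arrays, close to the size of 1 spot error on either side of 0, and MMP14 spanned 1.42.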

How the data were processed

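RNA of transfected (Cy5) and mock (Cy3) cells was hybridised to 8 Agilent 2-colour arrays. The authors' software (Feature Extraction 10.7.3.1) wrote the deposited background-corrected intensities, which are dye-normalized within the array, and log10 ratios of Cy5 over Cy3 with spot errors, a score of its error model. The deposited series table equalled these log10 ratios. The spike-in slope was 0.882 to 0.900, so ratios are compressed. Here, ratios were turned into log2, flagged spots were left out, repeated spots were averaged, and a gene was its brightest probe over both channels of 8 arrays. Measured means well above background in both channels. Calls used 1.5-fold. Mock levels were tested with limma 3.58.1 (R 4.3.3), by lmFit and eBayes on genes well above background in all mock channels of a line; the steps were tested on simulated data. Python 3.11.15, pandas 2.3.3 and numpy 2.4.6 were used. Genes named are all 9 targets, FOXQ1, the 2 lowest and 2 highest genes of each list and the 3 genes most like MTOR and SMARCA5. The members and lists were chosen with earlier results of these data known. The probe search for the seed match was chosen after seeing the data.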

Additional observations from a re-analysis of the deposited data

Results flagged for a closer look

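AKT1 moved in opposite directions under miR-99a-3p in the 2 lines that received it. Its log2 ratio was 0.48 ± 0.21 in FaDu and -0.28 ± 0.21 in PC3, a difference of 0.76, and each value was beyond its spot error. Neither value reached 1.5-fold. They lay at the 76.8th percentile of measured genes in FaDu and the 24.3rd in PC3. With 1 array per line the difference was not tested. AKT1 was below 0 on all 4 PC3 arrays.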

How the results depend on the processing

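With miR-99a-5p in FaDu, 0 targets were lower by 1.5-fold under every other normalization, filter, probe rule, centring and 2-fold threshold tried, and the median of the targets stayed between -0.15 and -0.04. Counting targets below 0 by more than the spot error gave 1, SMARCD1. Its ratio after limma normexp and loess, -0.14, was within that error. Subtracting the FaDu miR-99a-3p array gave 3 targets and a median of -0.36, and list medians of -0.44 (SWI/SNF and ISWI remodellers), -0.16 (steroid receptors and their chaperones) and -0.21 (further family targets), since that array's own changes enter. Counting each probe gave 1 probe of 7 lowest of the 8 arrays. With limma normexp and loess, applied to the other arrays after seeing the data, the targets lower by 1.5-fold were 0 in place of 1 (miR-150-5p) and 1 in place of 2 (miR-150-3p) in PC3, and those higher were 0 in place of 1 with either strand of miR-150 and with miR-100-3p.

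Leaving out 1 mock channel at a time, 6 of 9 targets differed between FaDu and PC3 each time, 6 to 8 between FaDu and PANC-1, and 3 to 7 between PC3 and PANC-1, the lowest without the si-FOXQ1-2 channel; where 1 channel was left, it was assumed to vary like the other lines. Under the other normalization, scaling, filter and probe rule these counts were 6 each time, 6 to 9 and 4 to 7. The FaDu minus PC3 difference of FKBP5 turned to 0.33 with the mean over probes, of which 1 was not above background. No paired analysis was possible because there is a single array for every condition; transfected against mock cells over the 4 PC3 arrays, which mixes 4 RNAs, was not tested. The list of genes with a seed site was not run. The number of arrays limits the precision.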

Other observations

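Other genes of the IGF and AKT pathway, chosen after their values were seen, also differed between the mock cells. AKT2 had a mean mock level of 7.56 ± 0.01 (SD, n = 2) in PANC-1, 4.05 ± 0.01 (n = 2) in FaDu and 3.18 ± 0.05 (n = 4) in PC3. By limma PC3 minus PANC-1 was -4.39 ± 0.05 (SE) on the log2 scale for AKT2 (adjusted p = 7.60e-09). For AKT1, FaDu minus PC3 was -0.61. INSR, the insulin receptor, had 1.36 ± 0.12 in PC3 and -2.37 ± 0.11 in PANC-1, and was not well above background in FaDu.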
